A study of Mus musculus with 16 samples.

Results

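The genes described here are 10 members of the Notch pathway: the receptors Notch1, Notch2, Notch3 and Notch4, the ligands Jag1 and Jag2, and the target genes Hes1, Hey1, Hey2 and Heyl. They were chosen by name, as core pathway genes, and all 10 were found among the 22381 gene IDs examined. Notch receptors are single-pass membrane proteins that bind Jagged or Delta ligands on a neighbouring cell, after which ADAM proteases and γ-secretase release the intracellular part of the receptor. That part enters the nucleus, joins the DNA-binding protein RBPJ and a Mastermind co-activator, and switches on genes such as those of the Hes and Hey repressors. In bone, Notch signalling is known to hold mesenchymal progenitors in an immature state, and Hes and Hey proteins are known to act on RUNX2, the runt-domain factor that osteoblast formation depends on.

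Chromatin immunoprecipitation with sequencing (ChIP-seq) was carried out in MC3T3-E1, an established mouse pre-osteoblast line, with antibodies to 2 transcription factors, RUNX2 and the leucine zipper protein C/EBPβ, and to 5 histone marks, H4K5Ac, H3K9Ac, H3K4me1, H3K4me3 and H3K36me3. Differentiated cells were grown for 15 days with ascorbic acid at 50 µg/mL and glycerol-2-phosphate at 10 mM, and undifferentiated cells were grown without these additions. Both states were at passages 5 to 12 and received ethanol vehicle for 3 h before the ChIP assay, and the labels name no genetic change and no subclone of the line. Each antibody had 1 deposited peak list per state, 14 lists in all, with biological replicates already merged, so that no difference between states below had a replicate check or a p-value. Differentiated cultures were homogenised and spun through sucrose to free them of mineralised matrix before immunoprecipitation, a step described for that state alone, and its part in any difference between the states cannot be told apart from differentiation. A peak lists where signal passed the authors' threshold, so a site bound in fewer cells and a site bound less strongly cannot be told apart, and the read depth is unknown. Every peak name records at least 2 merged peaks, so a site called in a single replicate may be missing from the list of that state.

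The differentiated list held 6272 RUNX2 peaks and the undifferentiated list 12674, a ratio of 0.495. For C/EBPβ the lists held 10847 and 15622 peaks, for H3K9Ac 23671 and 14975 regions, and for H3K4me3 8196 and 6920 regions, in differentiated and undifferentiated cells. As a check of the cell type, 7 of 9 osteoblast markers had H3K36me3 over at least 50% of the gene in differentiated cells and 6 of 9 in undifferentiated cells. H3K4me3 was at the promoter of 5 of the 9 in each state. The osteoblast marker Alpl had 0% H3K36me3 cover and no H3K4me3 at the promoter in both states, though H4K5Ac, H3K9Ac and H3K4me1 were there. The defining markers of endothelium, muscle, blood, fat and neurons (Cdh5, Pecam1, Tek, Kdr, Myod1, Myog, Acta1, Ptprc, Spi1, Adipoq, Plin1, Fabp4, Rbfox3 and Syp) had 0% H3K36me3 cover and no H3K4me3 or H3K9Ac at the promoter in either state. Some had other marks there: Adipoq and Tek had H4K5Ac and H3K4me1 in both states, Pecam1 had H3K4me1 in both states, and Syp had H4K5Ac in differentiated cells only. In undifferentiated cells only, Pecam1 had H4K5Ac, Myog had H3K4me1 and Fabp4 had both. Bglap, which encodes osteocalcin, had no H4K5Ac, H3K9Ac, H3K4me1 or H3K4me3 at its promoter in either state, and the cartilage collagen gene Col2a1 had 0% H3K36me3 cover in differentiated cells, against 66.1% in undifferentiated cells.

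The RUNX2 sites at these genes that the results turn on are shown first, as the + strand of mm9 within the deposited peaks. Capitals mark the RUNX words TGTGGT or TGCGGT on either strand. The Hes1 site is shown because the promoter peak of undifferentiated cells was not overlapped by the promoter peak of differentiated cells. For this undifferentiated peak, chr16:30064408-30064608, the 62 bases upstream of the first TSS are printed and the 139 noncoding exon bases are left out.
Hes1 promoter, undifferentiated only, chr16:30064408-30064469: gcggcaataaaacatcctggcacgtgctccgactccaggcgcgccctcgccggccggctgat
The promoter peak of Notch2 that was present in both states and the one that was present in undifferentiated cells only are shown next.
Notch2 promoter, both states, peak of differentiated cells, chr3:97817255-97817455: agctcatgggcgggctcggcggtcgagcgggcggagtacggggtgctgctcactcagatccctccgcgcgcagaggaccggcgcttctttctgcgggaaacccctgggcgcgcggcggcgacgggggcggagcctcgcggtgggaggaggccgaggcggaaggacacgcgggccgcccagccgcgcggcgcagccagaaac
Notch2 downstream of the TSS, undifferentiated only, chr3:97817992-97818192: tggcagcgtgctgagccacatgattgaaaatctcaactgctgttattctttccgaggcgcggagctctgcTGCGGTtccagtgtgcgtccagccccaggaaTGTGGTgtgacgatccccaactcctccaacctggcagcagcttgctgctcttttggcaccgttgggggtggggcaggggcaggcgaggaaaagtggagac
For Jag1, the promoter peak found in undifferentiated cells only is set beside the distant peak found in both states. The upstream peak of Notch1 found in both states is the last, shown because it held a RUNX word on each strand.
Jag1 promoter, undifferentiated only, chr2:136942639-136942839: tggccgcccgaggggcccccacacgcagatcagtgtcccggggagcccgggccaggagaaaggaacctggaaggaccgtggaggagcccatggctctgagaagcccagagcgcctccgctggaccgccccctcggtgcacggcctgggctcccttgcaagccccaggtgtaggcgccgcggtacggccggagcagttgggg
Jag1 distant upstream site, both states, peak of differentiated cells, chr2:137030396-137030596: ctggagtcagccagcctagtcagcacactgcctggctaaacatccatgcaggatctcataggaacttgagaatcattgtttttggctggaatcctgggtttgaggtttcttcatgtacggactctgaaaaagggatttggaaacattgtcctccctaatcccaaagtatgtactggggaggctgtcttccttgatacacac
Notch1 upstream site, both states, peak of differentiated cells, chr2:26398791-26398991: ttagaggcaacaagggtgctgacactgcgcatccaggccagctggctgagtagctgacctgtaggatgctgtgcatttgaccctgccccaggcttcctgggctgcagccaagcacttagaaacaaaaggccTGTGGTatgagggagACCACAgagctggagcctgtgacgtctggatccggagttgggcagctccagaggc

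RUNX2 peaks lay at Notch1, Notch2, Notch3, Jag1 and Hes1 and at none of the other 5 genes, when each peak was given to the gene with the nearest transcription start site (TSS) within 100 kb. There were 9 RUNX2 peaks at the 10 genes in differentiated cells and 14 in undifferentiated cells, a ratio of 0.643, beside the ratio of 0.495 for the whole lists. The same 5 of 10 genes had a peak in both states, against 14.9% of all genes in differentiated cells and 27.2% in undifferentiated cells. Fewer peaks in differentiated cells were found at 4 of the 10 genes, Notch1, Notch2, Jag1 and Hes1, against 19.7% of all genes, and more at 0, against 2.91%. Among the 6486 genes with a RUNX2 peak in either state the share with fewer was 67.9% and the share with more 10.0%, so that 4 of 5 bound Notch genes is near what bound genes showed in general. A further description, with a cut-off that was not in the plan, is that 4 of the 10 had 3 or more RUNX2 peaks in undifferentiated cells, against 4.85% of all genes. When TSSs of noncoding genes were allowed to take peaks, only Notch2 still had 3 or more. The share over all genes was not counted in that way.

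Of the 14 undifferentiated RUNX2 peaks, 6 were kept, meaning that a differentiated peak overlapped them by at least 1 bp, and 8 were lost. Gained peaks, present in differentiated cells only, numbered 3. The kept peaks were spread over Notch1, Notch2, Notch3 and Jag1, and at Hes1 no peak overlapped between the states. So 6 of 9 differentiated peaks overlapped an undifferentiated one, beside 73.8% of all differentiated RUNX2 peaks, and 6 of 14 undifferentiated peaks overlapped a differentiated one, beside 36.4% of all undifferentiated RUNX2 peaks. With peaks up to 500 bp apart counted as shared, 8 were kept, 6 were lost and 2 were gained, and the promoter peak of Hes1 and the second intronic peak of Notch2 then counted as kept.

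**Figure D1:**
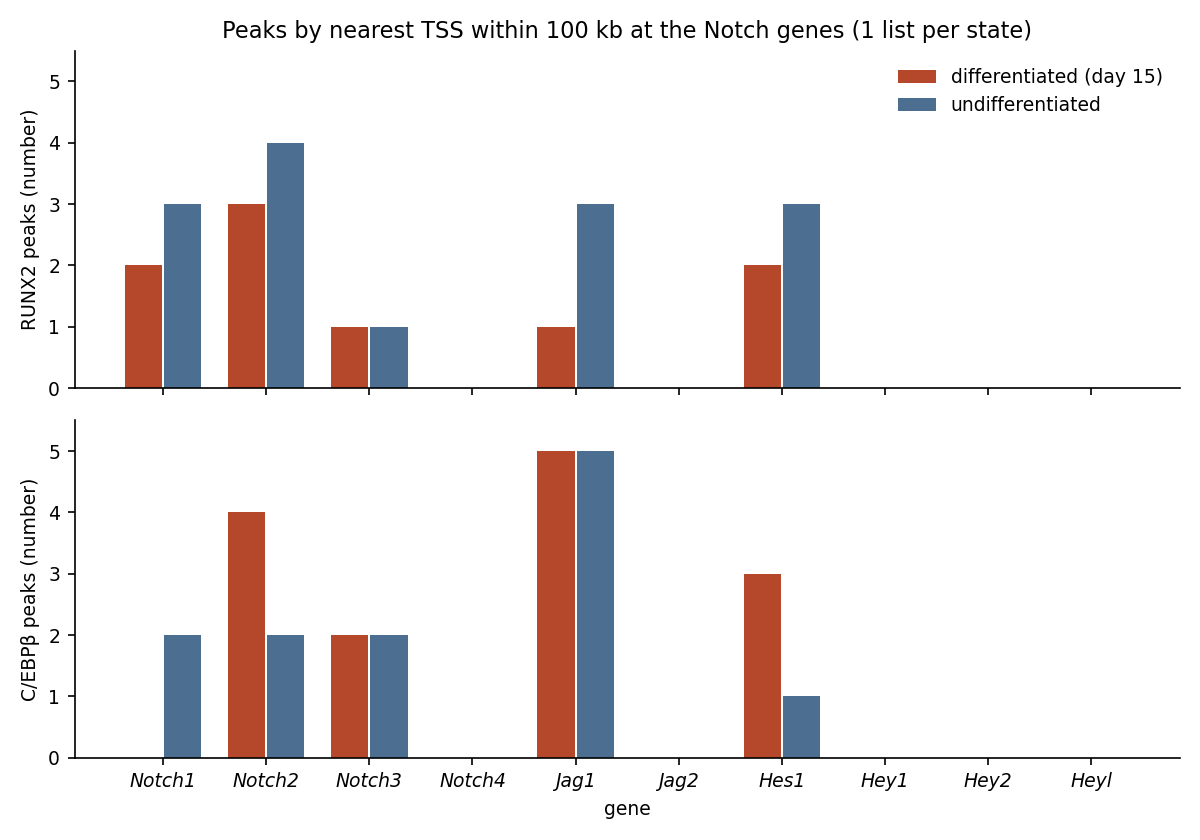
Number of RUNX2 peaks (upper panel) and C/EBPβ peaks (lower panel) at each of the 10 Notch genes, with 1 merged list per state and so no error bars. With each peak given to the nearest TSS, RUNX2 counts in differentiated cells were below or equal to those in undifferentiated cells at every bound gene, whereas C/EBPβ counts were higher in differentiated cells at Notch2 and Hes1 and lower at Notch1.

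Notch1, a widely used receptor of the family, lies on the minus strand of chromosome 2 at chr2:26313423-26372183 and had 2 RUNX2 peaks in differentiated cells, against 3 in undifferentiated cells. One kept peak was in an intron 22045 bp downstream of the first TSS (chr2:26350038-26350238 in differentiated cells, chr2:26350066-26350266 in undifferentiated cells). The other kept peak was intergenic, 26.7 kb upstream, and held 2 RUNX words, as printed above. The lost peak, chr2:26313824-26314024, was in an untranslated exon at the 3′ end of the gene. The kept sites thus stood inside and upstream of the gene, and the site at its far end was found in undifferentiated cells only.

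Notch2, the receptor with most RUNX2 peaks here, is on the plus strand at chr3:97817461-97954290. It had 3 RUNX2 peaks in differentiated cells and 4 in undifferentiated cells. Counting every peak in the gene body and 10 kb to each side, whichever TSS was nearest, moved the difference, differentiated minus undifferentiated, to -6 in place of -1. The kept promoter peak was centred 106 bp upstream of the TSS in differentiated cells and 202 bp upstream in undifferentiated cells. A lost peak was centred 631 bp downstream of the TSS and held 2 RUNX words within 50 bp of its centre, while the kept promoter peak held none. In the intron 43.5 kb downstream, the differentiated peak chr3:97860899-97861099 overlapped 1 undifferentiated peak, chr3:97860849-97861049. The second undifferentiated peak there, chr3:97861104-97861304, counted as lost although its centre was 205 bp from that of the differentiated peak. The gained peak, chr3:97768945-97769145, was intergenic, 48.4 kb upstream, and held 2 RUNX words.

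Notch3, a receptor best known from vascular smooth muscle, is on the minus strand at chr17:32257765-32303825 and had 1 RUNX2 peak in each state. The peak was kept in an intron, with its centre 5.43 kb downstream of the TSS in differentiated cells and 5.55 kb downstream in undifferentiated cells. It held a RUNX word and also the word TGGGAA, which is the core bound by RBPJ, in both states. Notch4, a receptor known mainly from endothelium, at chr17:34701213-34725448, had no RUNX2 peak in either state by nearest TSS. With all peaks within 20 kb of a TSS counted, the difference there, differentiated minus undifferentiated, was -1.

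Jag1, the Jagged ligand with a known role in skeletal cells, is on the minus strand at chr2:136907192-136942380 and had 1 RUNX2 peak in differentiated cells, against 3 in undifferentiated cells. Both peaks near its TSS, centred 359 bp and 1025 bp upstream, were lost, and neither held a RUNX word. The single kept peak was 88.1 kb upstream, and it overlapped a C/EBPβ peak in both states. Jag1 was the only 1 of the 10 genes with RUNX2 at the promoter in undifferentiated cells alone, against 10.3% of all genes. Jag2, the second Jagged ligand, at chr12:114146801-114167706, had no RUNX2 peak in either state.

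Hes1, which encodes a basic helix-loop-helix repressor and is the best studied direct Notch target, is on the plus strand at chr16:30064470-30067882. It had 2 RUNX2 peaks in differentiated cells and 3 in undifferentiated cells, and none overlapped between the states. At the promoter the differentiated peak lay upstream of the first TSS, and the undifferentiated peak was centred 38 bp downstream of it and held no RUNX word. The first TSS belongs to a noncoding transcript and the coding TSS lies 956 bp further downstream. Away from the promoter, the differentiated cells had a peak at chr16:30096619-30096819, 30.3 kb downstream of the nearest Hes1 TSS, which overlapped a gained C/EBPβ peak. The undifferentiated cells had peaks at chr16:30034780-30034980, 29.6 kb upstream, and at chr16:30111757-30111957, 45.4 kb downstream, each with 1 RUNX word. When TSSs of noncoding genes were allowed to take peaks, both of these went to a noncoding neighbour and the difference at Hes1, differentiated minus undifferentiated, was 1 peak in place of -1. Hey1 (chr3:8663362-8667039), Hey2 (chr10:30552165-30562607) and Heyl (chr4:122910799-122927118), which encode related repressors known from heart and vessels, had no RUNX2 peak in either state.

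RUNX2 lay within 1 kb of a TSS at Notch2 and Hes1 in differentiated cells and at Notch2, Jag1 and Hes1 in undifferentiated cells. This was 2 of 10 genes in differentiated cells, against 5.61% of all genes, and 3 of 10 in undifferentiated cells, against 15.0%.

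**Figure D2:**
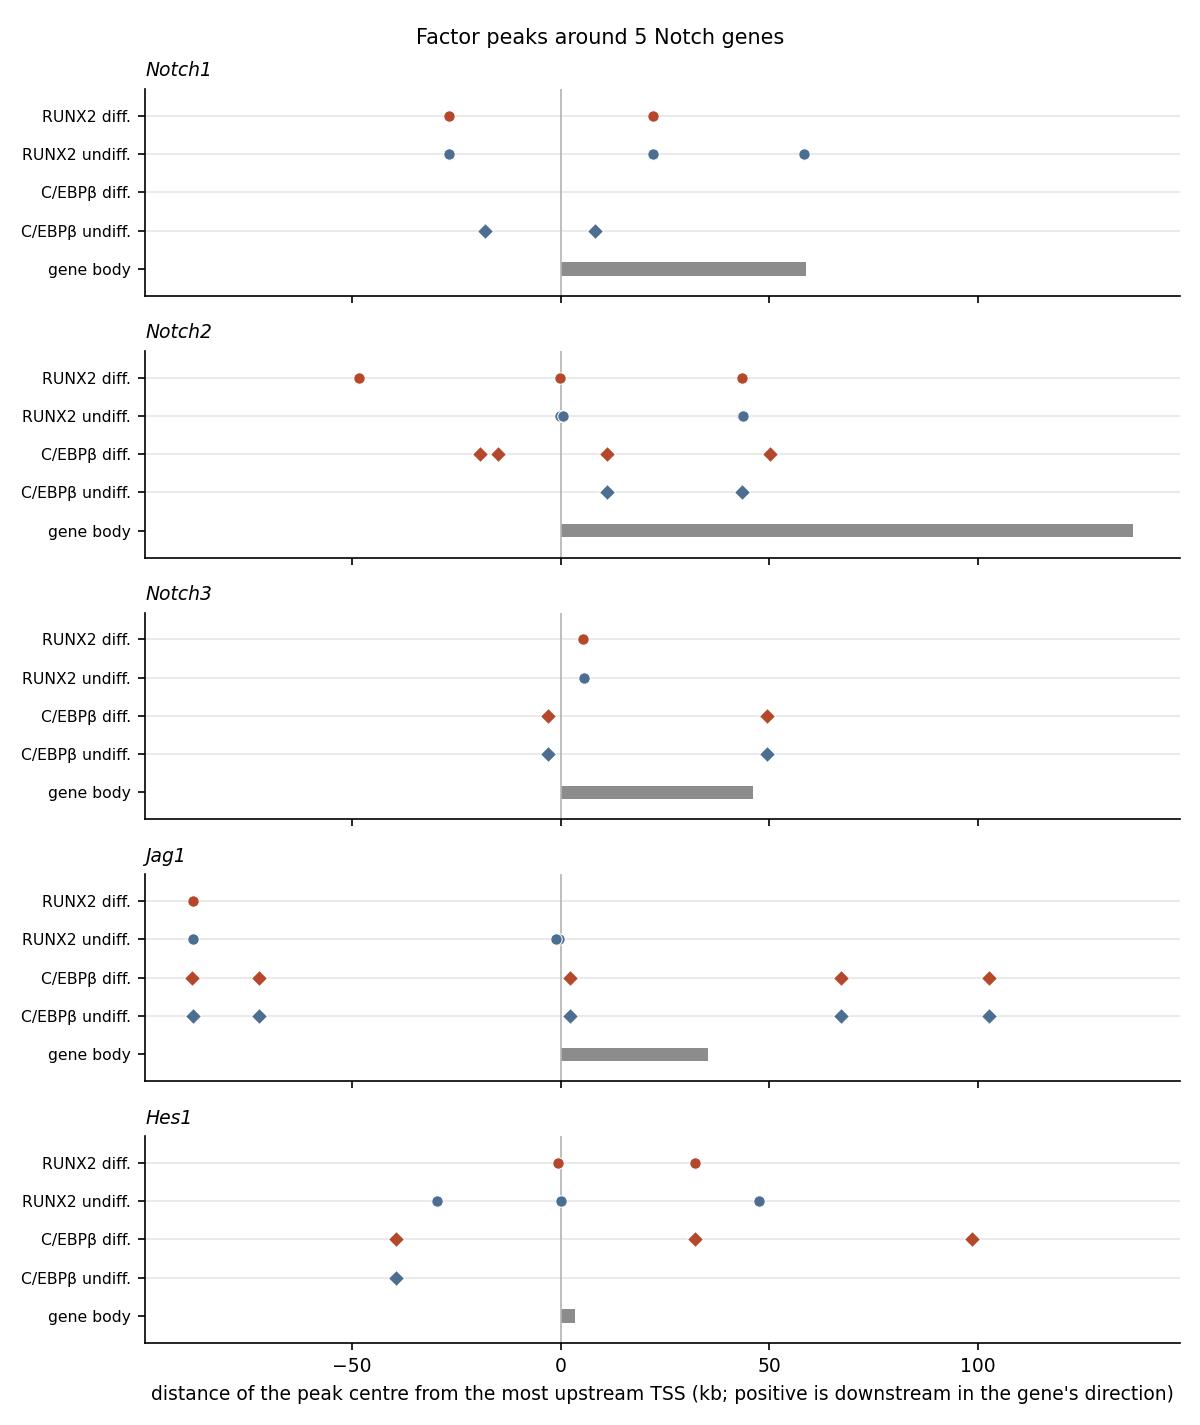
Position of each RUNX2 peak (circles) and C/EBPβ peak (diamonds) in differentiated (diff.) and undifferentiated (undiff.) cells, as the distance in kb of the peak centre from the most upstream TSS of Notch1, Notch2, Notch3, Jag1 and Hes1, with the gene body as a grey bar. The columns of points at Notch3 and the C/EBPβ points at Jag1 line up between the states, and at Hes1 no RUNX2 position is shared although the promoter points nearly coincide at this scale.

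C/EBPβ peaks lay at the same 5 genes, with 14 in differentiated cells and 12 in undifferentiated cells, a ratio of 1.17 beside 0.694 for the whole lists. The number of genes with a peak was 4 of 10 in differentiated cells, against 21.7% of all genes, and 5 of 10 in undifferentiated cells, against 27.6%. Peaks were more numerous in differentiated cells at 2 of 10 genes, Notch2 and Hes1, against 6.13% of all genes, and fewer at 1, Notch1, against 16.0%. Both higher counts depended on the assignment. With all peaks in the gene body plus 10 kb the difference was 0 at Notch2 and 0 at Hes1, and within 20 kb of a TSS it was 0 at Hes1. Among the 6963 genes with a C/EBPβ peak in either state, 19.7% had more and 51.5% had fewer. Of the 14 differentiated C/EBPβ peaks, 9 were kept and 5 were gained, and the kept share over all differentiated peaks was 62.1%. Of the 12 undifferentiated peaks, 9 were kept and 3 were lost, and the kept share over all undifferentiated peaks was 43.1%. No C/EBPβ peak lay within 1 kb of a TSS of any of the 10 genes in either state, against 6.53% of all genes in differentiated cells and 10.7% in undifferentiated cells.

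Notch1 had 0 C/EBPβ peaks in differentiated cells, against 2 in undifferentiated cells, at chr2:26363879-26364079 in an intron and at chr2:26390263-26390463, 18.2 kb upstream. Notch2 had 4 in differentiated cells and 2 in undifferentiated cells. Its gained peaks were 19.4 kb and 15.0 kb upstream and 50.2 kb downstream of the TSS, and its lost peak was at chr3:97860849-97861049, the same bases as the undifferentiated RUNX2 peak there. So at this intronic site RUNX2 was listed in both states and C/EBPβ in undifferentiated cells only. Notch3 had 2 C/EBPβ peaks in each state and both were kept, 3.07 kb upstream and 49.5 kb downstream of the TSS in differentiated cells, each with the C/EBP word TTGCNNAA.

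Jag1 had 5 C/EBPβ peaks in each state, the most of the 10 genes, and all 5 were kept. Only 1 of them was inside Jag1, 2.15 kb downstream of the TSS in differentiated cells, while 2 lay upstream and 2 lay in introns of the neighbouring gene 2210009G21Rik. So both RUNX2 peaks nearest the Jag1 TSS were lost while all C/EBPβ peaks there were kept. Hes1 had 3 C/EBPβ peaks in differentiated cells, against 1 in undifferentiated cells. The kept peak was 39.4 kb upstream and the gained peaks were 30.3 kb and 96.4 kb downstream. The first of these gained peaks, chr16:30096598-30096798, was the one that met the gained RUNX2 peak.

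All RUNX2 sites at these genes, 6 kept, 8 lost and 3 gained, were inside H4K5Ac and H3K4me1 regions in differentiated cells. Both marks are known from active enhancers and promoters, and the lost sites remained under them where the RUNX2 peak was no longer listed. The same held widely, with H4K5Ac in differentiated cells at 92.3% and H3K4me1 at 97.7% of all 8058 lost RUNX2 sites. H3K9Ac, another acetylation mark of active sites, lay at 4 of 6 kept sites in differentiated cells and 2 of 6 in undifferentiated cells, at 6 of 8 lost sites and 5 of 8, and at 2 of 3 gained sites and 1 of 3. For all RUNX2 sites these shares were 83.0% and 55.4% for kept, 73.6% and 54.7% for lost, and 52.3% and 25.8% for gained sites, in differentiated and undifferentiated cells. The H3K9Ac list itself was 1.58 times as long in differentiated cells.

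Single sites show how the marks sat. At the gained RUNX2 and C/EBPβ site 30.3 kb downstream of Hes1, a 2.37 kb H3K9Ac region was present in differentiated cells and none in undifferentiated cells, while H3K4me1 was there in both states. At the gained Notch2 site 48.4 kb upstream, H4K5Ac was present in differentiated cells and not in undifferentiated cells, and H3K9Ac in neither. The lost Jag1 sites 359 bp and 1025 bp upstream remained in a 6.88 kb H3K9Ac region in differentiated cells, against 5.48 kb in undifferentiated cells, and in a 4.04 kb H3K4me3 region, against 3.80 kb. The kept Jag1 site 88.1 kb upstream had H4K5Ac and H3K4me1 and no H3K9Ac in both states.

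RUNX words, TGTGGT or TGCGGT on either strand, were present in 5 of 9 RUNX2 peaks of these genes in differentiated cells and 6 of 14 in undifferentiated cells. All RUNX2 peaks of the lists held one at 71.1% and 61.7%, in differentiated and undifferentiated cells. Of the 4 undifferentiated peaks centred within 1 kb of a TSS, the one downstream of the Notch2 TSS held RUNX words and the other 3 held none. The C/EBP word TTGCNNAA was in 7 of 14 C/EBPβ peaks in differentiated cells and 7 of 12 in undifferentiated cells, beside 44.8% and 41.1% of all C/EBPβ peaks. TGGGAA, the RBPJ word, was in 2 of 9 RUNX2 peaks in differentiated cells and 1 of 14 in undifferentiated cells, beside 21.4% and 20.8% of all. All words were searched on both strands and can share bases at their ends, and a match or its absence in these windows describes the letters only.

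Promoters of the 10 genes fell into groups by their marks, counted within 1 kb of any annotated TSS. H4K5Ac was at 7 of 10 in differentiated cells and 7 in undifferentiated cells, against 54.2% and 55.4% of all genes. H3K9Ac was at 7 and 6, against 52.4% and 49.1%. H3K4me1 was at 9 and 7, against 58.8% and 57.0%, and H3K4me3, the mark of active start sites, was at 5 and 5, against 40.0% and 34.9%. H3K36me3 regions reached a TSS window at 3 and 3, against 36.9% and 37.6%. The 5 genes with H3K4me3 in both states were Notch1, Notch2, Notch4, Jag1 and Hes1. Notch3 had H4K5Ac, H3K9Ac and H3K4me1 and no H3K4me3 in both states, and Jag2 had none of the 5 marks in either.

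**Figure D3:**
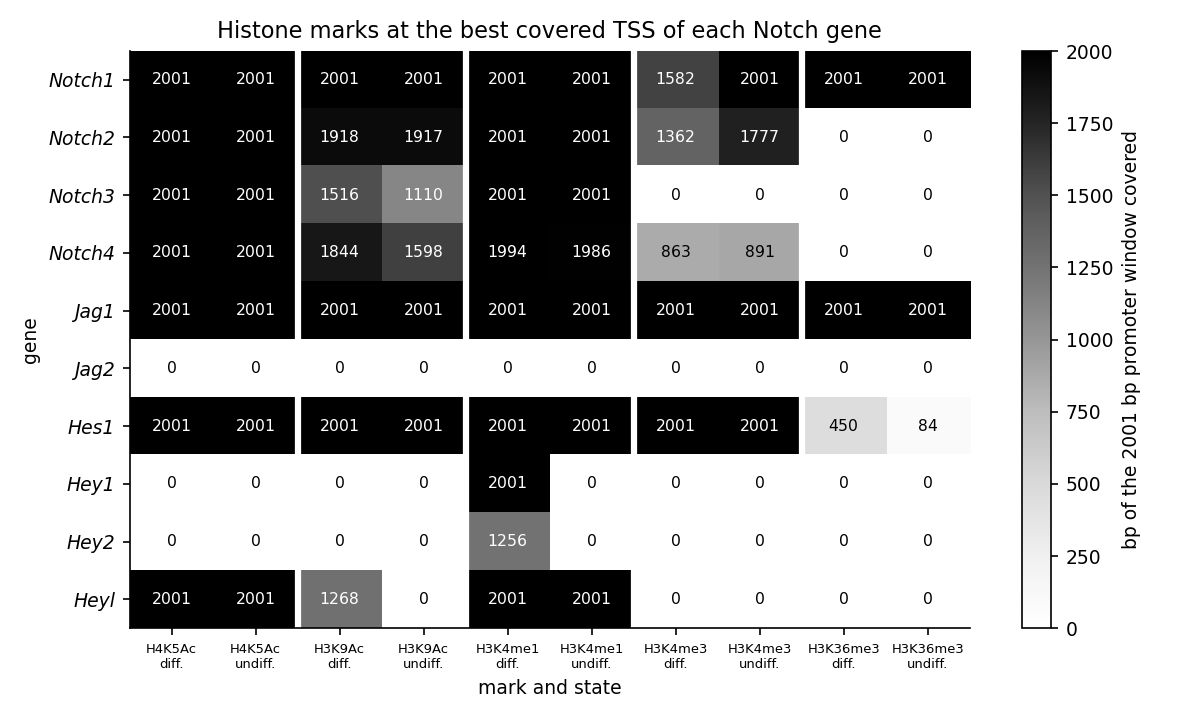
Base pairs of the 2001 bp window around the best covered TSS that lay under each mark, for each of the 10 genes, with differentiated cells (diff.) left of undifferentiated cells (undiff.) and darker cells for more cover. Hey1, Hey2 and Heyl are the rows where a mark is present in differentiated cells and absent in undifferentiated cells, and the Jag2 row is 0 throughout.

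With the lists as deposited, promoter marks present in differentiated cells only were found at Hey1, Hey2 and Heyl among the 10 genes, and none was found in undifferentiated cells only. This depended on the lengths of the lists. With the same number of highest scoring regions from each state, H3K9Ac was at 6 promoters in differentiated cells and 6 in undifferentiated cells, H3K4me1 at 8 and 7, H3K4me3 at 4 and 5, and H3K36me3 at 3 and 2. Over all genes a promoter mark was present in differentiated cells only at 1.18% for H4K5Ac, 6.58% for H3K4me3 and 2.07% for H3K36me3, where the count here was 0. It was present in undifferentiated cells only at 2.41% for H4K5Ac and 0.156% for H3K9Ac, where the count was also 0. The same count was 0 for the methylation marks, beside 1.41% (H3K4me1), 1.46% (H3K4me3) and 2.73% (H3K36me3) of all genes. H3K4me1 was at Hey1 and Hey2 in differentiated cells only, against 3.22% of all genes. At Hey1 it covered 2001 bp of the promoter window, against 0 bp in undifferentiated cells, and at Hey2 1256 bp, against 0 bp. Both regions scored low in their list, at percentiles 14.7 for Hey1 and 3.19 for Hey2. Neither gene had H4K5Ac, H3K9Ac or H3K4me3 at the promoter in either state. Promoter H3K4me1 in differentiated cells only, together with the absence of those marks in both states, was found at 1.52% of all genes. At Heyl, H3K9Ac covered 1268 bp in differentiated cells, against 0 bp in undifferentiated cells, with a region at percentile 4.85 of its list, and 3.40% of all genes gained H3K9Ac at the promoter in this way. The marks of Heyl, including H4K5Ac and H3K4me1 in both states, lay 6201 bp inside the gene at an internal TSS of a noncoding transcript, and none lay at the first TSS.

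At 2 of the receptors the TSS with H3K4me3 was not the first. Notch1 had H3K9Ac and H3K4me3 in both states at TSSs 12839 bp and 12841 bp downstream of the first. The TSS 7006 bp downstream had H3K9Ac in both states and H3K4me3 in undifferentiated cells only, and the first TSS had H4K5Ac and H3K4me1 alone. Notch4 had its marks at internal TSSs 20300 bp or more downstream, and none at its first 6 TSSs. The undifferentiated H3K4me3 region of Notch4, and its H4K5Ac and H3K4me1 regions in both states, also covered TSSs of the neighbouring genes Gpsm3 and Pbx2, so these cannot be told apart from marks of the neighbours. Its H3K9Ac regions in both states and its differentiated H3K4me3 region covered none of those TSSs. The H3K9Ac regions still ended within 1 kb of a Gpsm3 TSS at chr17:34726751. Their ends were at chr17:34726039 in differentiated cells and chr17:34725803 in undifferentiated cells. These H3K9Ac regions too cannot be told apart from marks of that neighbour. At the most upstream TSS alone, H3K4me3 was at 3 of the 10 genes, Notch2, Jag1 and Hes1, in both states.

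The promoters differed in base composition as well as in marks. Within 1 kb of the most upstream TSS the ratio of observed to expected CpG was 0.966 at Jag2, 0.856 at Notch2, 0.849 at Hey1, 0.838 at Hes1, 0.814 at Jag1 and 0.753 at Hey2, beside a median of 0.468 over all genes. It was 0.571 at Notch3, 0.404 at Heyl, 0.193 at Notch1 and 0.180 at Notch4. Jag2, Hey1 and Hey2 thus had CpG-rich promoters without H3K4me3, and the first TSSs of Notch1 and Notch4, also without H3K4me3, were CpG-poor.

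The H3K4me3 region at the promoter was narrower in differentiated cells at 4 of the 5 genes that had one in both states, beside 61.0% of all such genes. At Notch2 it was 2.65 kb in differentiated cells and 17.4 kb in undifferentiated cells, at Notch1 2.61 kb and 9.42 kb, at Hes1 2.67 kb and 9.48 kb, and at Notch4 1.25 kb and 7.58 kb. At Jag1 the region was 4.04 kb in differentiated cells and 3.80 kb in undifferentiated cells. The undifferentiated region of Notch4 also covered TSSs of Gpsm3 and Pbx2, so its narrowing cannot be told apart from a change at these neighbours. By score the differentiated region of Notch4 was at percentile 5.03 of its list. The undifferentiated region of Hes1 was at percentile 29.4. The 4 genes that narrowed all did so by at least 2 times, against 12.6% of the 7477 genes with H3K4me3 in both states, whose median widths were 2.66 kb and 2.99 kb. All 4 had regions of at least 7 kb in undifferentiated cells, and among the 774 genes with such broad regions in undifferentiated cells 72.1% narrowed as much. The comparison of widths and its cut-offs of 2 times and 7 kb were not in the plan and were added after seeing the data. Merging H3K4me3 regions closer than 1 kb, a setting also added then, left the count at 4.

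**Figure D4:**
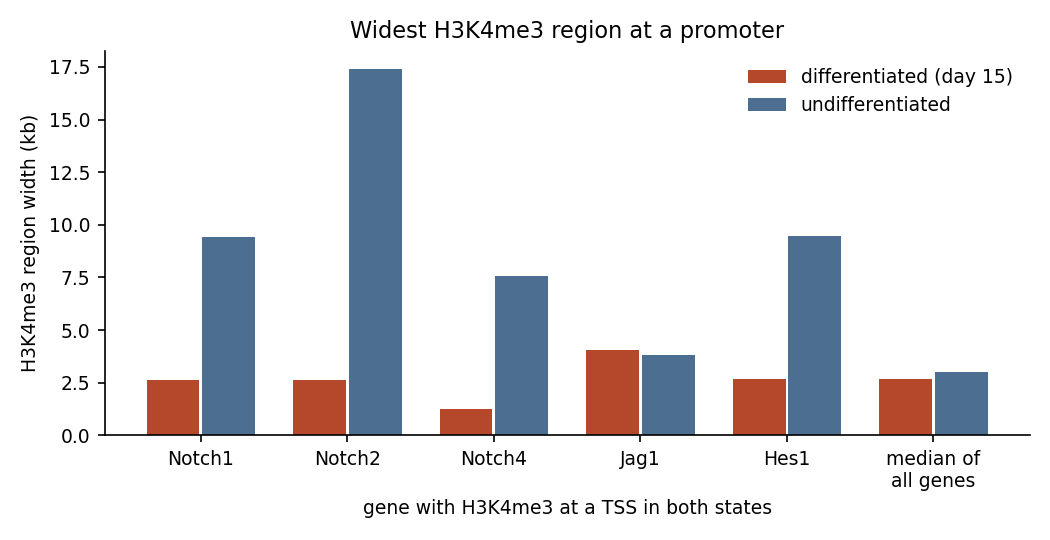
Width in kb of the widest H3K4me3 region at a promoter in differentiated cells (left bar of each pair) and undifferentiated cells (right bar), for the 5 Notch genes with H3K4me3 in both states and as the median over all such genes. The differentiated bars of Notch1, Notch2 and Hes1 lie between 2.61 kb and 2.67 kb, close to the median of 2.66 kb, and Jag1 is the single gene whose bars are nearly level.

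H3K36me3, a mark laid down along transcribed gene bodies, covered Notch1, Notch2 and Jag1 in both states. Cover was 75.6% of Notch1 in differentiated cells and 75.7% in undifferentiated cells, 99.0% and 98.0% of Notch2, and 91.3% and 98.1% of Jag1. Hes1 had 26.6% in differentiated cells, against 15.9% in undifferentiated cells. The other 6 genes had 0% in both states. The number covered over at least 50% was 3 of 10 in each state, against 40.8% of all genes in differentiated cells and 40.7% in undifferentiated cells. A change of 20 points or more was found at 0 of the 10 genes upward, against 2.28% of all genes, and at 0 downward, against 2.25%. Hes1 spans 3.41 kb and its H3K36me3 regions were 1.52 kb and 1.43 kb wide, at percentiles 5.88 and 0.0673 by score, in differentiated and undifferentiated cells.

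**Figure D5:**
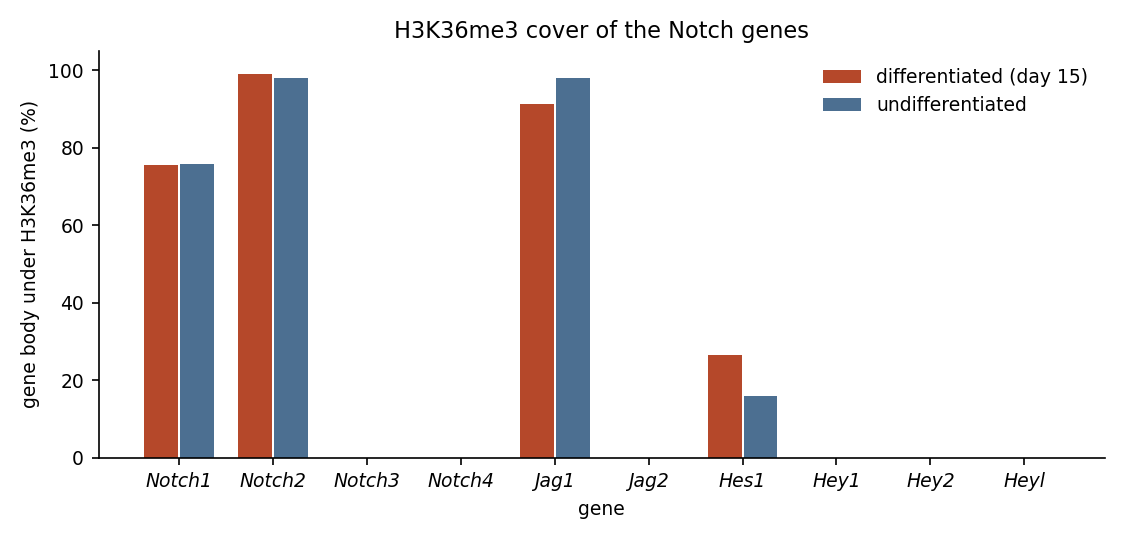
Percentage of the annotated gene body under H3K36me3 in differentiated cells (left bar of each pair) and undifferentiated cells (right bar) for the 10 Notch genes. Notch1, Notch2 and Jag1 stand above 75% in both states, Hes1 is at 26.6% and 15.9%, and the other 6 genes are at 0.

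By number of regions, H3K9Ac was the mark that differed most between the states at these genes, with 18 regions (69.5 kb) in differentiated cells and 9 (40.0 kb) in undifferentiated cells. More H3K9Ac regions in differentiated cells were found at 6 of 10 genes, against 21.6% of all genes, and fewer at 0, against 2.11%. These shares include genes without any H3K9Ac region. At least 1 region was at 7 of 10 genes in differentiated cells, against 52.9% of all genes, and at 6 in undifferentiated cells, against 46.7%. The share with more among genes with a region was not counted. At Notch1 there were 5 H3K9Ac regions, covering 22.0 kb, in differentiated cells and 1, covering 10.1 kb, in undifferentiated cells. With the same number of highest scoring regions taken from each list, the total was 11 in differentiated cells and 9 in undifferentiated cells. H4K5Ac had 34 regions (285 kb) in differentiated cells and 33 (346 kb) in undifferentiated cells, and H3K4me1 had 48 (319 kb) and 44 (303 kb). The whole H4K5Ac lists held 33439 regions (265 Mb) in differentiated cells and 41592 (340 Mb) in undifferentiated cells. With equal numbers of highest scoring regions the H4K5Ac counts at these genes were 34 and 26. Jag1 carried many of the H4K5Ac regions, with 12 covering 57.4 kb in differentiated cells and 16 covering 127 kb in undifferentiated cells.

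The pattern of Notch2 over all 14 lists was set beside that of every other gene, as the sum of absolute differences in the number of peaks and regions. Notch2 had 45 peaks and regions over the 14 counts. The nearest was Nedd4, which encodes a ubiquitin ligase, at a distance of 7, with 3 RUNX2 peaks in differentiated cells and 4 in undifferentiated cells, as at Notch2. Rpl30-ps6 followed at 8 and Vezt at 9.

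Another 47 genes of the pathway were counted in the same way. RUNX2 peaks lay at 13 of 47 in differentiated cells and 16 in undifferentiated cells, beside 14.9% and 27.2% of all genes. They numbered 30 and 48, beside 6272 and 12674 in the whole lists. Fewer peaks in differentiated cells were found at 13 and more at 4, beside the shares of 19.7% and 2.91% of all genes given above. Among all genes with a RUNX2 peak in either state these shares were 67.9% and 10.0%, whereas the 47 include genes without a RUNX2 peak. Most of the RUNX2 peaks at the 47 genes, 22 of 30 in differentiated cells and 34 of 48 in undifferentiated cells, were at the 11 genes of the nuclear complex. Rbpj, the DNA-binding partner of the Notch intracellular domain, had 8 RUNX2 peaks in differentiated cells and 11 in undifferentiated cells, and 6 C/EBPβ peaks, against 14. Maml3, a Mastermind co-activator, had 4 and 7 RUNX2 peaks in differentiated and undifferentiated cells.

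In the other roles the RUNX2 counts were small. Among receptor-processing enzymes, Adam10 had 1 RUNX2 peak in differentiated cells and 0 in undifferentiated cells, and Adam17 had 1 and 2. Lfng, the Fringe glycosyltransferase that tunes ligand choice, had 1, against 3. Of the genes of endocytosis and turnover, Mib1 and Dtx4 had 1 RUNX2 peak in differentiated cells and 0 in undifferentiated cells, Neurl1a had 1 and 3, and Fbxw7, which marks the intracellular domain for destruction, had 0 and 2. Dlk1, a ligand-like membrane protein, had 1 peak in each state at different places. Among the 6 other target genes only Hes7 had a RUNX2 peak, 0 in differentiated cells and 1 in undifferentiated cells.

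H3K4me3 was at the promoter of 32 of the 47 in differentiated cells and 26 in undifferentiated cells, beside 40.0% and 34.9% of all genes. H3K36me3 covered at least 50% of 29 in each state, beside 40.8% and 40.7%. H3K36me3 cover was higher by 20 points or more in differentiated cells at 3 genes, beside 2.28% of all genes. These were Dtx4, with 92.1% against 0% in undifferentiated cells, Psen2, a catalytic subunit of γ-secretase, with 50.0% against 0%, and Aph1b, another subunit, with 37.0% against 0%. It was lower at 2, beside 2.25% of all genes. These were Dlk2, with 46.8% against 83.8% in undifferentiated cells, and Lfng, with 60.7% against 84.2%. These 5 genes were named after their values were seen.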

How the data were processed

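The deposited peak lists were used as the authors made them. The submitters' processing notes name Bowtie, HOMER and the build mm9, and their versions and settings are not given in the sources used. Every peak name records at least 2 merged peaks, so each list joins replicates. The score in the deposited lists is the authors' own value. It was 0 for all RUNX2 and C/EBPβ peaks, which are 201 bp wide, and it ranked mark regions within a list.

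The 2 inputs were not analysed here. The state of the differentiated H3K36me3 sample was taken from its title, and the antibody label H4K5Ac was used where the protocol reads H3K5Ac. Genes were the 22381 protein-coding gene IDs (70065 TSSs) of GENCODE vM1, with Cebpd added, and positions are 1-based on mm9. Peaks went to the nearest TSS within 100 kb of their centre, and peaks were shared at 1 bp of overlap. H3K36me3 cover was the percentage of the gene body under its regions, and a change was called at 20 points. Sequence was read from the mm9 genome. Named pathway genes were those with a gained RUNX2 peak and up to 2 per role with most undifferentiated RUNX2 peaks. Some items are not reported here, though counts and totals include them. The genes and lists were chosen with earlier results of these data known. Steps were tested on simulated data and run in Python 3.11.15 with numpy 2.4.6. Alternatives covered assignment, overlap, score, promoter width, TSS choice, gene model and motif window.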

Additional observations from a re-analysis of the deposited data

How the results depend on the processing

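No paired analysis was possible because each antibody and state has 1 merged list, and leaving out a replicate was not possible for the same reason. Of the main counts under alternatives, 132 stayed within 1.5 times and 43 moved further, and such counts had no direction that could reverse. Values for single genes were judged by sign or by the 50% line of H3K36me3 cover. Of these, 152 stayed the same, 7 moved and 1 reversed. Many of those that stayed the same were 0 under both settings, at genes without peaks or without H3K36me3. Such values say little about how stable the results are. For RUNX2 peaks, in differentiated and undifferentiated cells, taking all peaks within 20 kb of a TSS gave 4 and 9, with 3 kept and 1 gained. The gene body plus 10 kb gave 5 and 14, with 10 lost and 1 gained, and moved the difference at Notch2 from -1 to -6. TSSs of any gene type gave 9 undifferentiated peaks with 5 lost, the difference at Hes1 then reversed to 1, and that at Notch1 was 0. At Hes1 it was 0 within 20 kb and in the gene body plus 10 kb. The difference at Notch4 was -1 within 20 kb, in place of 0. Centres within 50 bp gave 5 gained. For C/EBPβ, differentiated peaks were 9 within 50 kb, 8 within 20 kb and 6 in the gene body plus 10 kb, with 3, 2 and 1 gained. The gene body plus 10 kb gave 7 undifferentiated peaks with 5 kept. Taking the upper 50% of each list by score gave, in differentiated and undifferentiated cells, 12 and 19 H4K5Ac, 8 and 5 H3K9Ac, 25 and 25 H3K4me1, and 3 and 2 H3K36me3 regions, and H3K4me3 at 3 promoters in undifferentiated cells. Equal numbers of regions gave 11 H3K9Ac regions in differentiated cells. Regions within 20 kb of a TSS were 22 for H4K5Ac in differentiated cells, and in differentiated and undifferentiated cells 27 and 25 for H3K4me1 and 8 and 7 for H3K4me3. The most upstream TSS alone left, in differentiated and undifferentiated cells, H3K4me3 at 3 and 3 promoters and H3K36me3 at 0 and 1, and H3K9Ac at 4 in differentiated cells. H3K36me3 cover was called higher at 1 gene, not 0, with equal numbers of regions, with the upper 50%, or with a 10 point change. The bases within 50 bp of the peak centre held RUNX words in 3 and 3 RUNX2 peaks, in differentiated and undifferentiated cells, and C/EBP words in 4 undifferentiated C/EBPβ peaks. The cause of each shift was not tested. No stricter score threshold could be set for RUNX2 or C/EBPβ, since every score was 0. Read depth and enrichment behind each list are unknown, and list lengths differ between states.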
